A study of Mus musculus with 6 samples.

Results

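Gcnt2, B3galt5 and 7 other transferases that build the sugar chains of the cell surface (Gcnt1, B4galt1, Fut7, St3gal4, St3gal6, St6gal1 and Mgat5) were followed in NKp46+ cells of the intestine, the skin and the spleen. Every probe of the BeadChip named for a member was taken, and the choice of genes rests on their measured levels in these same samples, so the levels and differences of the members are given as a description, without a test. The tables spell St3gal4 as Siat4c and St3gal6 as Siat10, their older symbols. By the symbol as printed 14 probes of 7 genes were found, and with the older symbols 18 probes of all 9 genes, of 46643 probes in all. Of the 18 probes, 14 passed the filter, which asked for a detection p-value under 0.01 on the 2 arrays of any 1 tissue, and each member kept at least 1 probe. Of all probes, 18583 passed, standing for 13455 genes.

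The series compared intestine, skin and spleen with 2 arrays each. The cells were sorted per the labels as NKp46+, NK11+ and CD45+ without CD3, from the gut lamina propria, the skin and the spleen of male RAG-2-KO C57BL/6 mice aged 12 weeks. All 6 samples therefore carry the same deletion, which leaves a mouse without T and B cells but with its innate lymphocytes, and no sample came from a mouse with intact RAG-2. The series title names the transcription factor RORgamma-t in NKp46+ cells of gut and skin as the subject. No label says whether the 2 arrays of a tissue came from different mice or pools, so the errors below cover only how these arrays differ, which could be technical. The arrays numbered 1 of all tissues shared 1 slide and those numbered 2 another.

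Glycan chains are made in the Golgi by transferases that each add 1 kind of sugar in 1 kind of bond, so the enzymes that a cell holds set which chains it can show. Branching enzymes decide where a chain forks, galactosyltransferases extend it, and fucosyl- and sialyltransferases cap it. On leukocytes the capped and fucosylated chains are the ligands of selectins, galactose-ended chains bind galectins, and sialylated chains bind Siglecs. On the mouse intestinal surface the same enzyme families make the blood-group-related chains of the epithelium.

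Gcnt2 and B3galt5 were the members that set the intestinal cells apart. Signals below are the deposited array signals, scaled to a common mean of 83.1 and with the background subtracted, so that an unexpressed gene lies near 0. Differences are log2 values after adding 16 to each signal and quantile normalisation, which understates the change of dim genes. They are given with the standard error (SE) of a limma fit over all 6 arrays. A probe is called detected where its detection p-value was under 0.01. The signal that reached detection differed between arrays, so an undetected signal in 1 tissue can exceed a detected signal in another. A lower bound ("at least") is given where the dimmer tissue was not detected on either array. Lower RNA of a gene in every cell and fewer cells that hold it cannot be told apart in these bulk samples.

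Gcnt2 encodes the I-branching enzyme, which adds the branch that turns linear i chains into branched I chains. Probe 4540465 of Gcnt2 had signals of 894 and 1055 in intestinal cells, 7.40 and 4.95 in skin cells and 19.7 and 35.1 in splenic cells. The intestinal arrays lay far above the other 4, the splenic arrays were detected but dim, and the skin arrays were not detected. The intestine exceeded the spleen by 4.72 ± 0.18 (log2, SE, 2 arrays per tissue), a 26.3-fold difference on the scale with the added 16. Against the skin the difference was 5.57 ± 0.18, at least 42.9-fold. Skin lay below spleen by a difference of -0.86 ± 0.18, at least 1.63-fold lower, and this gap was -0.57 on slide 1 and -1.14 on slide 2.

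**Figure D1:**
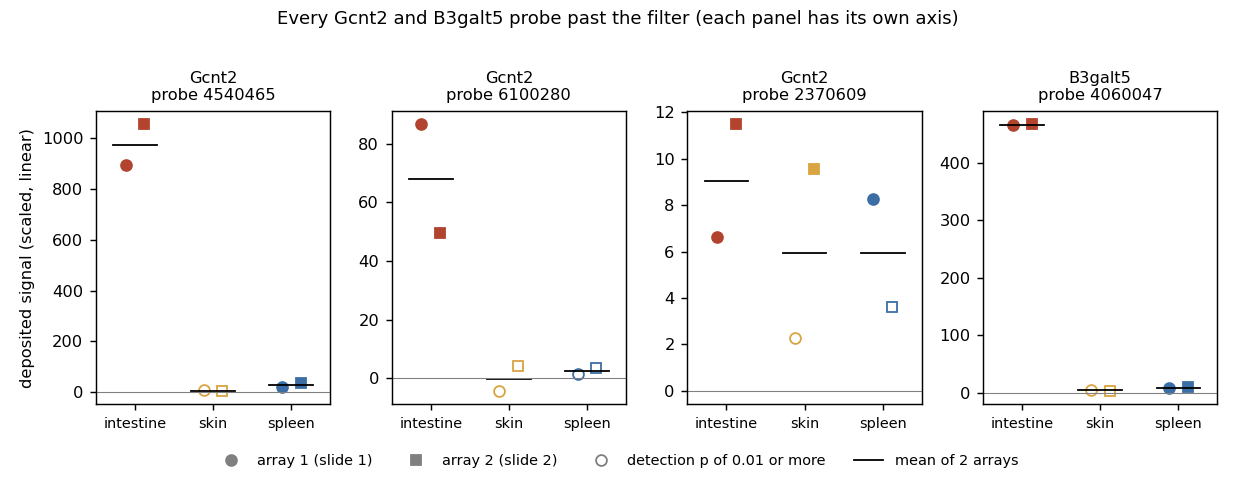
Deposited signal (linear, scaled) on each array for the 3 Gcnt2 probes and the B3galt5 probe past the filter, with intestine, skin and spleen from left to right, 2 arrays per tissue, hollow points for arrays without detection and a bar at the mean of 2. Probes 4540465 and 6100280 of Gcnt2 and probe 4060047 of B3galt5 are high in both intestinal samples, while probe 2370609 stays at or under 11.5 in every tissue.

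The 4 Gcnt2 probes of the array did not all behave alike. Probe 6100280 gave 86.7 and 49.7 in intestinal cells, -4.31 and 4.02 in skin cells and 1.60 and 3.55 in splenic cells, and was detected in the intestine only. Its difference was 2.31 ± 0.24 against the spleen, at least 4.47-fold, and 2.56 ± 0.24 against the skin, at least 3.97-fold. Probe 2370609 gave 6.62 and 11.5 in intestinal, 2.28 and 9.56 in skin and 8.27 and 3.598 in splenic cells. Its 3 tissues overlapped, and its differences of 0.20 ± 0.19 (intestine against spleen) and 0.29 ± 0.19 (intestine against skin) were close to their SE. Probe 2760309 was detected on no array. The tables assign all 4 probes to the same gene, and which of the gene's alternative transcripts each probe reads was not tested.

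Gcnt2 is annotated with several start sites, each with its own first exon, so the 250 bases before each RefSeq start are shown (GRCm38.p6, mouse chromosome 13, 5′ to 3′). Capitals would mark a match, on either strand, to any of 6 motifs of factors known in lymphocytes or of general promoters: AP-1 (TGANTCA), CRE (TGACGTCA), the ROR motif (AGGTCA), T-box (AGGTGTGA), Runx (TGTGGT) and TATA box (TATAAA). AP-1 and CRE cannot match at the same position.
Gcnt2 start site 1, chr13:40859518-40859767 (plus strand): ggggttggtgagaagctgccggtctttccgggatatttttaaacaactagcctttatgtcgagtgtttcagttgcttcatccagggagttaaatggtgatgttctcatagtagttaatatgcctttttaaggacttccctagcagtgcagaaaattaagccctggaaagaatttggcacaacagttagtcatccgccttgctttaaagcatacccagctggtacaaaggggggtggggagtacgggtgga
Gcnt2 start site 2, chr13:40886508-40886757 (plus strand): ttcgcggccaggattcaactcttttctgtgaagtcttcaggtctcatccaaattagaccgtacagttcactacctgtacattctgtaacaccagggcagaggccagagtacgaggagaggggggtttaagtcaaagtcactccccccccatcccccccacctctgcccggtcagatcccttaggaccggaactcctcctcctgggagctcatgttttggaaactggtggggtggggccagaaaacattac
Gcnt2 start site 3, chr13:40917384-40917633 (plus strand): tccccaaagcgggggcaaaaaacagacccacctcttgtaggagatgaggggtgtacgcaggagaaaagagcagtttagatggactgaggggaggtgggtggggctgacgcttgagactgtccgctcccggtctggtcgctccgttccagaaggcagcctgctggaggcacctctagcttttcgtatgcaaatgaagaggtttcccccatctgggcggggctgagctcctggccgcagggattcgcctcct
No window of Gcnt2 held any of the 6 motifs. Of all 32851 such windows in the RefSeq table, 6.75% held AP-1, 1.55% CRE, 14.0% the ROR motif, 1.12% T-box, 14.0% Runx and 12.4% the TATA box. A missing match says only that these letters are not in these 250 bases.

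B3galt5 encodes a galactosyltransferase that makes type 1 chains, a backbone found in gut epithelium. Its only probe, 4060047, had signals of 465 and 467 in intestinal cells, 4.59 and 3.25 in skin cells and 7.60 and 10.05 in splenic cells. As for Gcnt2, both intestinal arrays were high, the splenic arrays were just detected and the skin arrays were not. The intestine exceeded the spleen by 4.34 ± 0.13 (log2, SE), 20.2-fold on this scale, and the skin by 4.72 ± 0.13, at least 21.5-fold. Skin and spleen differed by -0.39 ± 0.13. On slides 1 and 2 taken alone, the intestine exceeded the spleen by 4.36 and 4.31.

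Because B3galt5 was high in the same samples as Gcnt2, the 250 bases before its 3 RefSeq starts are shown too (GRCm38.p6, chromosome 16, 5′ to 3′), with motif matches in capitals.
B3galt5 start site 1, chr16:96235551-96235800 (plus strand): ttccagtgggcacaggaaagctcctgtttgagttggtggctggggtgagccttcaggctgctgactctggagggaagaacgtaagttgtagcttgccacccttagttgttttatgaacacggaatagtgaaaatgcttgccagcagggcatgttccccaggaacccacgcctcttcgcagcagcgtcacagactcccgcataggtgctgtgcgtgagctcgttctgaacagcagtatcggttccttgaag
B3galt5 start site 2, chr16:96273263-96273512 (plus strand): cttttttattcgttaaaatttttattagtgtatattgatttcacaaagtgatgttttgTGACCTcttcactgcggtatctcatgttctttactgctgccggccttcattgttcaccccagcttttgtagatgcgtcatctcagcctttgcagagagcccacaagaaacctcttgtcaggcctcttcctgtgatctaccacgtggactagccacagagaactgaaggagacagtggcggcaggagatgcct
B3galt5 start site 3, chr16:96280782-96281031 (plus strand): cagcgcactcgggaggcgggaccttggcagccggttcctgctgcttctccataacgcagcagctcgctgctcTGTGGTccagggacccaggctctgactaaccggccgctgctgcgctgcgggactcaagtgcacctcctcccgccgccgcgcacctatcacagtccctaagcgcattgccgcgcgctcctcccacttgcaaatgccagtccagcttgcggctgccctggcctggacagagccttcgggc
Start site 2 of B3galt5 held a ROR motif, on the opposite strand, 192 to 187 bases before the start. Start site 3 held a Runx match 178 to 173 bases before the start. Each of these motifs stands in 14.0% of all windows, and neither match shows that a factor binds there. Among the 19 windows of the 9 members, the ROR motif also stood before start site 3 of St6gal1 and before the Mgat5 start, and Runx before the B4galt1 start and before start site 1 of Fut7 and of St3gal6.

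Among the 9992 genes detected on both arrays of intestine and of spleen, Gcnt2 ranked 4 and B3galt5 ranked 10 by the size of their excess in the intestine. The members were chosen on these levels, so the ranks are a description. Genes not detected on both splenic arrays are outside this ranking. The 2 genes lie on different chromosomes, and their centred profiles over the 6 arrays lay a root mean square distance of 0.37 (log2) apart. The closest members were B4galt1 and Mgat5, at 0.12, both of them moderately higher in the intestine. Every other member lay at least 1.73 from Gcnt2 and from B3galt5.

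**Figure D2:**
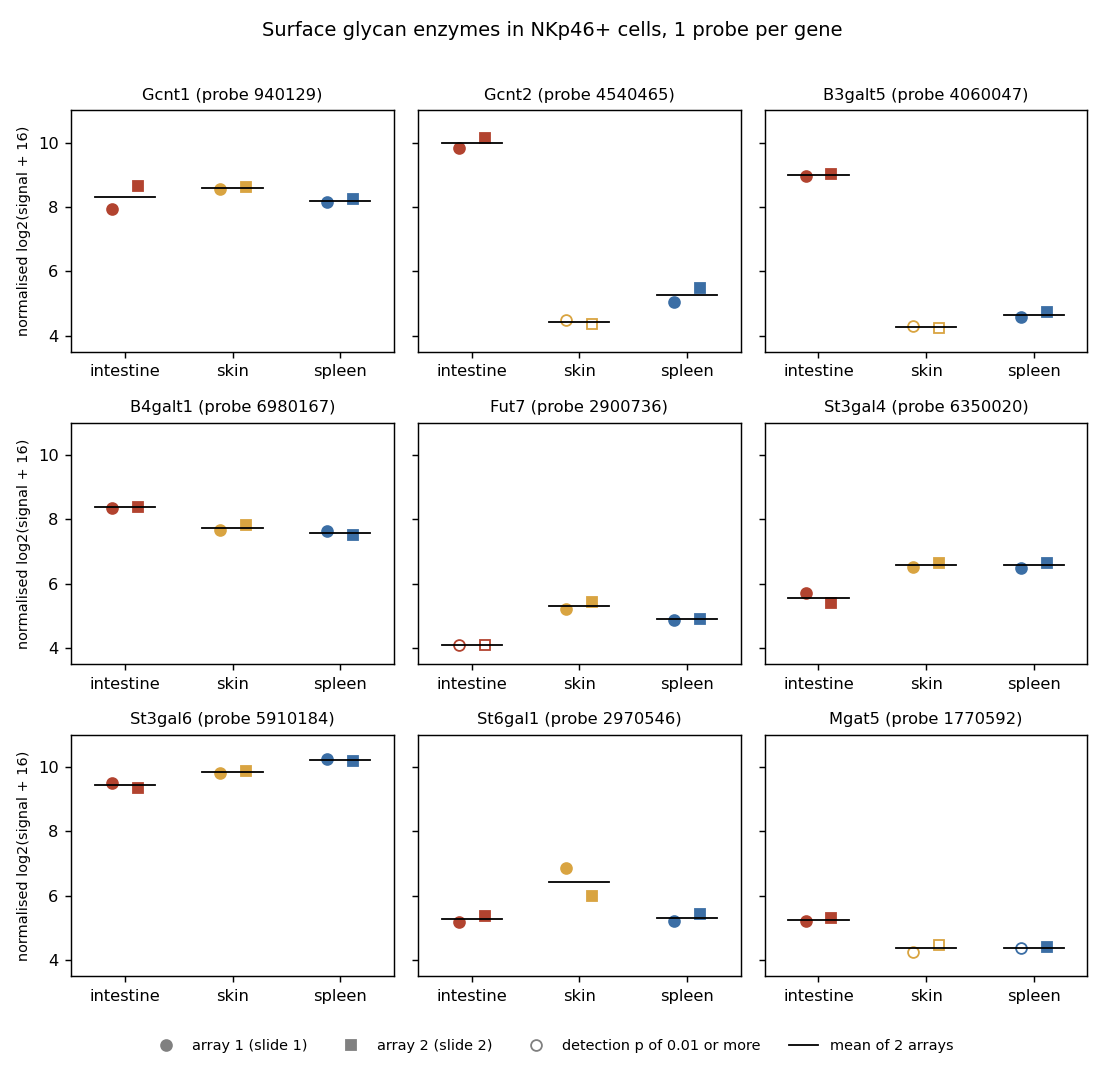
Normalised log2(signal + 16) on each of the 6 arrays for the 9 members, 1 probe per gene (that with the highest mean), with intestine, skin and spleen from left to right, hollow points for arrays without detection and a bar at the mean of 2 arrays. Gcnt2 and B3galt5 are high in the intestine and near the floor elsewhere. B4galt1 and Mgat5 are moderately higher in the intestine, and Fut7, St3gal4 and the St3gal6 probe shown are lower there.

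Gcnt1, which makes the core 2 branch of O-glycans that carries selectin ligands, did not share the pattern of Gcnt2. Probe 940129 had 203 and 346 in intestinal cells, 340 and 370 in skin cells and 308 and 325 in splenic cells. The intestinal arrays bracketed those of the spleen. Its difference between intestine and spleen was 0.11 ± 0.21 (log2, SE), with -0.20 on slide 1 and 0.41 on slide 2, so that its direction rests on which intestinal sample is read. Skin exceeded spleen by 0.39 ± 0.21, on both slides. A second probe, 1780215, gave 0.17 ± 0.16 for intestine against spleen and 0.30 ± 0.16 for skin against spleen. The other, 2370253, was detected on no array.

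B4galt1 extends chains with galactose in the bond of type 2 chains, the bond most N-glycans of leukocytes carry. Its probe 6980167 had 287 and 286 in intestinal cells, 180 and 205 in skin cells and 214 and 197 in splenic cells. Both intestinal arrays lay above all others, and skin and spleen overlapped. The difference was 0.80 ± 0.14 (log2, SE) against the spleen, or 1.74-fold, and 0.63 ± 0.14 against the skin. The dim probe 106040605 had signals of 11.3 or less and pointed the same way, at 0.37 ± 0.14 and 0.34 ± 0.14. B4galt1 thus differed in the same direction as B3galt5 but by a far smaller step.

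Mgat5 adds a branch to N-glycans that carries galectin-binding chains, and its loss lowers the activation threshold of mouse T cells. Probe 1770592 had 17.0 and 19.8 in intestinal cells, 4.02 and 6.93 in skin cells and 4.14 and 4.69 in splenic cells. Only the intestinal samples were detected on both arrays, with 1 of 2 splenic and neither skin array detected. The undetected skin signal of 6.93 was nonetheless above the detected splenic signal of 4.69, so detection does not separate skin from spleen here. The difference was 0.86 ± 0.14 (log2, SE) against the spleen and 0.89 ± 0.14 against the skin, which is at least 1.61-fold. The other probe, 6940441, was detected on no array.

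Fut7, the fucosyltransferase that completes sialyl Lewis x, a selectin ligand, ran the other way. Probe 2900736 had 1.01 and 1.14 in intestinal cells, 21.0 and 25.8 in skin cells and 14.0 and 14.9 in splenic cells. The intestinal arrays showed no detection, and the skin arrays were the brightest. The intestine lay below the spleen by -0.79 ± 0.14 (log2, SE), at least 1.25-fold lower, and below the skin by -1.21 ± 0.14, at least 1.68-fold lower. Skin exceeded spleen by 0.42 ± 0.14. All these signals were low, and the added 16 shrinks their differences.

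St3gal4 and St3gal6 put sialic acid on the galactose at a chain's end, a step that comes before Fut7 in making sialyl Lewis x. The St3gal4 probe, 6350020, had 29.7 and 22.3 in intestinal cells, 72.1 and 83.4 in skin cells and 89.5 and 101 in splenic cells. The intestine lay below both other tissues on both slides, by -1.01 ± 0.15 against the spleen and by -1.03 ± 0.15 against the skin (log2, SE), close to 2.02-fold and 2.04-fold. Skin and spleen differed by 0.01 ± 0.15.

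For St3gal6 the probes disagreed. Probe 5910184, the brighter, had 699 and 598 in intestinal cells, 850 and 900 in skin cells and 1253 and 1201 in splenic cells, and the 3 tissues did not overlap. Intestine and skin lay below spleen by -0.79 ± 0.13 and -0.39 ± 0.13 (log2, SE). Probe 105420711, designed per the tables on a cDNA clone, had 101 and 93.0 in intestinal, 151 and 140 in skin and 79.7 and 90.8 in splenic cells. It was higher in intestine than in spleen, by 0.58 ± 0.14, and higher in skin than in spleen, by 0.94 ± 0.14. Against the skin the intestine was lower by both probes, at -0.41 ± 0.13 and -0.36 ± 0.14. The dim probe 106660707 was detected on 1 splenic array and no other. The direction of St3gal6 against the spleen is therefore uncertain.

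St6gal1, which adds the sialic acid that the B cell Siglec CD22 binds, stood out in the skin instead. Probe 2970546 had 16.4 and 21.8 in intestinal cells, 97.96 and 47.0 in skin cells and 25.7 and 32.8 in splenic cells. Both skin arrays were above all others, but they differed from each other more than those of the other tissues did. Skin exceeded spleen by 1.12 ± 0.24 (log2, SE), with 1.66 on slide 1 and 0.57 on slide 2. Intestine and spleen differed by -0.04 ± 0.24, and the intestine lay below the skin by -1.16 ± 0.24.

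**Figure D3:**
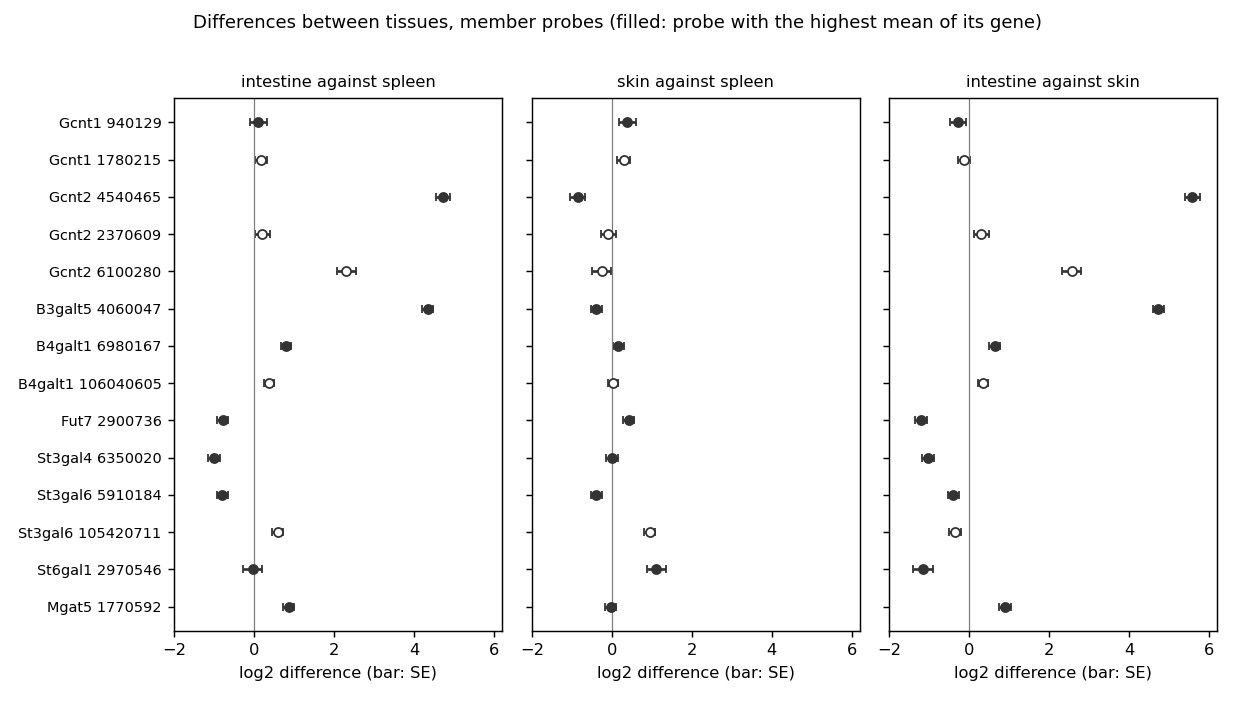
Log2 difference with its standard error (bar) for the 14 member probes in the 3 comparisons, with filled points for the probe of highest mean of each gene. Probe 4540465 of Gcnt2 (4.72) and probe 4060047 of B3galt5 (4.34) stand apart in intestine against spleen, and the 2 St3gal6 probes lie on opposite sides of 0 in both comparisons with the spleen.

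Counted by gene, 4 of the 9 members were higher and 3 lower in intestine than in spleen with a limma adjusted p-value under 0.05, against a background of 48.2% of all 13455 genes called (20.5% higher, 27.8% lower). In skin against spleen 1 was higher and 1 lower, against 23.1% of all genes (12.3% higher, 10.8% lower). In intestine against skin 4 were higher and 4 lower, against 38.1% (16% higher, 22.1% lower). Since the members were chosen on these levels, nothing is read from these counts. St3gal6 was counted by its probe 5910184, and its probe 105420711 went the other way against the spleen. The tissues' arrays did not overlap for 7, 7 and 8 of the 9 members in the same 3 comparisons, against 77.8%, 71.7% and 65.9% of all genes. The differences between intestine and spleen and between skin and spleen share the splenic arrays.

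The arrays were checked for the cells they hold. Ncr1, which encodes NKp46, had 10.8 and 14.7 in intestinal, 33.1 and 32.4 in skin and 88.2 and 52.9 in splenic cells, and Klrb1c, which encodes NK1.1, had 978 and 1073 in intestinal, 2125 and 2003 in skin and 2311 and 2071 in splenic cells. Of 12 NK cell and group 1 innate lymphoid markers, 10 were detected on both arrays in the intestine, 10 in the skin and 11 in the spleen. Of 9 T cell markers on the array, 6 were detected on both arrays in the intestine and 5 each in the skin and the spleen, with summed signals of 998 and 1145 in intestine, 952 and 1017 in skin and 1210 and 1084 in spleen. Cd3g had 312 and 597 in intestinal, 54.6 and 59.4 in skin and 109 and 81.4 in splenic cells, and Cd8a was detected in the intestine only. Other T cell markers were lowest in the intestine or overlapped. In intestine, skin and spleen, Cd247 had 148 and 111, 207 and 188, and 381 and 365. Cd8b1 had 134 and 148, 361 and 373, and 269 and 257. Cd3d had 123 and 113, 108 and 137, and 203 and 153. Cd28 had 275 and 153, 219 and 252, and 247 and 225. Cd3e, Cd4 and Cd5 were detected on no array. The part of these markers in the differences of the glycan enzymes was not tested. B3galt5 and Gcnt2 are also enzymes of gut epithelium, so its 16 markers are given beside them: 4 were detected on both arrays of the intestine, 3 of the skin and 2 of the spleen. Their summed signals were 126 and 189 in the intestine, 129 and 114 in the skin and 83.9 and 107 in the spleen. Epcam, Krt8, Krt19, Cdh17, Fabp1, Fabp2, Tff3, Cldn7, Elf3 and Reg3g were not detected on any array. Vil1 (5.97 and 5.84 in the intestine) was detected on 1 intestinal and 1 splenic array. Krt20 (4.37 and 11.6 in the intestine) was detected on 1 intestinal and 1 skin array. Cdh1 (E-cadherin) was detected in intestinal cells only, at 61.1 and 84.5, and Krt18 (8.38 and 14.4), Muc2 (9.53 and 12.0) and Lgals4 (29.1 and 45.1) were also detected on both intestinal arrays. The 3 detected on both skin arrays were Krt18 (14.0 and 7.79), Muc2 (17.7 and 9.33) and Lgals4 (72.4 and 67.7). The 2 in the spleen were Krt18 (4.79 and 6.45) and Lgals4 (67.5 and 82.2). Lgals4 was thus lowest in the intestine. The part of epithelial RNA in the signals of Gcnt2 and B3galt5 was not tested. Summed erythroid markers were 1114 and 692 in the intestine, 1030 and 783 in the skin and 11704 and 17610 in the spleen. Their part in the lower splenic values of any gene was not tested. Summed macrophage and dendritic cell markers were 282 and 246 in intestine, 365 and 384 in skin and 603 and 569 in spleen, and their part was not tested either.

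Of 24 immediate early and stress genes, known to respond within a short time to stimulation, 22 were tested. In the intestine 19 rose and 3 did not pass against the spleen, and 15 rose and 7 did not pass against the skin. In the skin 13 rose and 3 fell against the spleen. In that order the shares called were 86.4%, 68.2% and 72.7%, against 48.2%, 38.1% and 23.1% of all genes. The summed signal of this list was 44934 and 33461 in intestine, 20845 and 19277 in skin and 6574 and 10376 in spleen, and its part in the differences of the glycan enzymes was not tested.

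The rest of the pathway was followed in 11 lists of genes: the transferases, the enzymes and transporters that supply their sugar donors, the enzymes that remove sugars, and the proteins that carry or bind the chains. Without the 9 members the lists held 167 genes, of which 99 passed the filter. The lists were written with earlier results of these data known, so their counts and p-values are a description. Against the spleen, 16 of the 99 rose and 43 fell in the intestine with a limma adjusted p under 0.05, or 59.6%, against 48.2% of all genes, with a median difference of -0.32 over the lists and -0.04 over all genes. This balance depends on the scaling. With all 108 tested genes of the lists, members included, 20 rose and 46 fell, or 30.3% higher among those called, against 20.0% with the deposited scaling alone and 50.0% with median scaling. In the skin 9 rose and 15 fell against the spleen, or 24.2% against 23.1% of all genes. Against the skin, 13 rose and 36 fell in the intestine, or 49.5% against 38.1%. The count for skin against spleen also rests on each array: of the 108 genes 26 passed, and between 7 and 41 did when 1 array was left out.

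**Figure D4:**
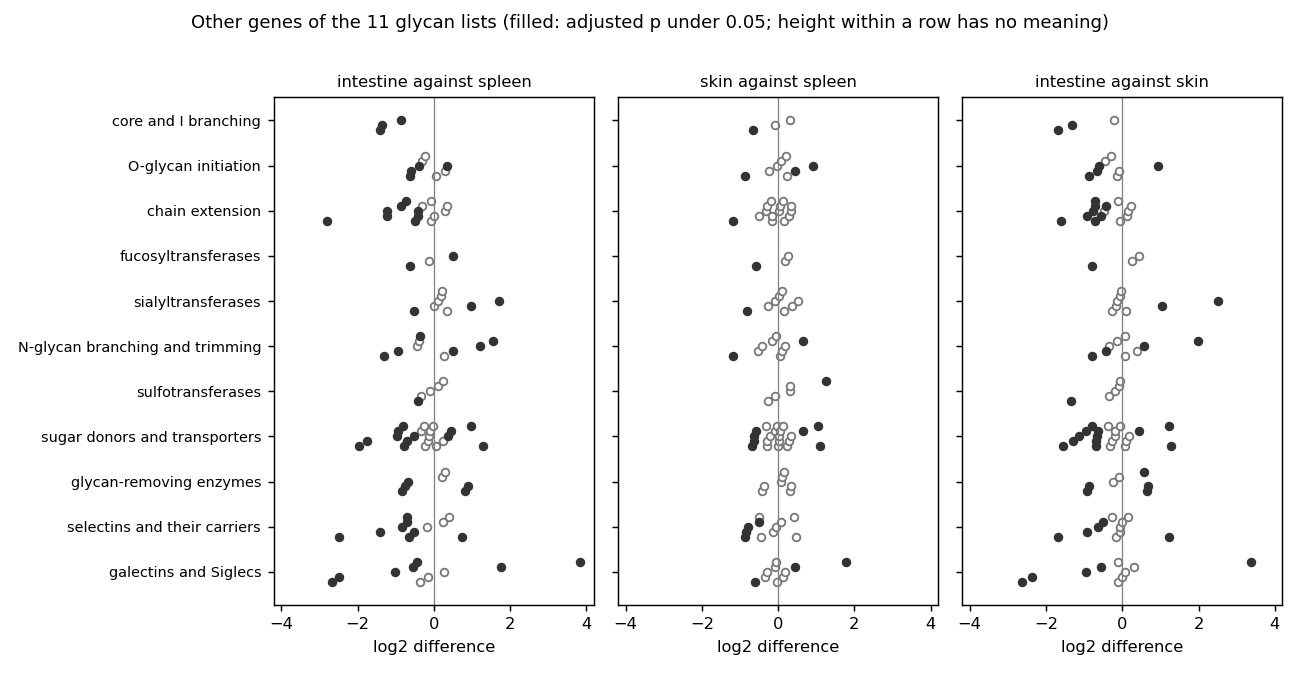
Log2 difference of each tested gene of the 11 glycan lists without the 9 members (1 point per gene) in the 3 comparisons, filled where the limma adjusted p is under 0.05. In both comparisons of the intestine most filled points lie left of 0, with B3gnt5 (-2.79 against the spleen) farthest left among the transferases.

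Among the genes of core and I branching other than Gcnt1 and Gcnt2, all 3 that were tested fell in the intestine against the spleen. Of all genes, 48.2% were called and 27.8% fell. C1galt1, which makes the core 1 chain of O-glycans, had signals of 140 and 125 in intestinal, 365 and 419 in skin and 509 and 455 in splenic cells. Its difference was -1.41 ± 0.14 against the spleen (log2, SE, limma adjusted p = 3.85e-05) and -1.31 ± 0.14 against the skin, though its 2 other probes gave -0.54 and 0.59 against the spleen. C1galt1c1, the chaperone that this enzyme needs, fell in the skin against the spleen by a difference of -0.65 ± 0.15, a call lost when any of the 4 arrays of these tissues was left out. The probe the tables name B3gnt6 fell by a difference of -1.36 ± 0.15 against the spleen and -1.68 ± 0.15 against the skin. That symbol is also an older name of B4gat1, so the gene behind this probe is uncertain.

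The O-glycan initiators, which link the first sugar to serine or threonine, split by tissue. Galnt2, at 1270 and 1311 in intestinal, 648 and 661 in skin and 1273 and 1297 in splenic cells, fell in the skin against the spleen by a difference of -0.87 ± 0.13 and rose in the intestine against the skin by 0.93 ± 0.13. Galnt10 rose in the skin against the spleen by 0.90 ± 0.16, with other probes at -0.16 and 0.79. Galnt3 fell in the intestine by differences of -0.64 ± 0.20 against the spleen and -0.87 ± 0.20 against the skin, and Galnt11 by -0.60 ± 0.15 and -0.66 ± 0.15. Galntl6 rose in intestine (0.35 ± 0.13) and in skin (0.44 ± 0.13) against the spleen at signals under 15. The calls for Galntl6 were lost with a larger added constant, with no filter and in most fits without 1 array. Those for Galnt3 against the spleen, Galnt11 against both tissues and Galnt10 (skin against spleen) were lost when 1 array was left out. The Galnt3 call was also lost with the largest added constant and with median scaling.

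In the list of chain extension, which holds the relatives of B3galt5 and B4galt1, 8 of the 14 other genes tested fell in the intestine against each of the other tissues and 6 did not pass. This share of 57.1% stands beside 48.2% of all genes called against the spleen and 38.1% against the skin. B3gnt5, which starts lacto-series glycolipid chains, had 11.6 and 14.0 in intestinal, 71.4 and 80.9 in skin and 213 and 253 in splenic cells. The 3 tissues did not overlap. It fell in the intestine by a difference of -2.79 ± 0.14 against the spleen (log2, SE, limma adjusted p = 7.36e-07), in the intestine by -1.61 ± 0.14 against the skin and in the skin by -1.18 ± 0.14 against the spleen. A second B3gnt5 probe gave -0.38 against the spleen and 0.16 against the skin in the intestine. B3galt4, a galactosyltransferase of gangliosides, fell in the intestine by a difference of -1.23 ± 0.13 against the spleen and -0.93 ± 0.13 against the skin. B3galt5 and B4galt1, chosen as members, were higher in the intestine.

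Of the 3 other fucosyltransferases tested, Pofut1, which fucosylates Notch, rose in the intestine against the spleen by 0.50 ± 0.18, and Pofut2 fell by a difference of -0.62 ± 0.17 against the spleen and -0.80 ± 0.17 against the skin. Fut8, which adds the core fucose of N-glycans, fell in the skin against the spleen by a difference of -0.58 ± 0.19, with other probes at -0.14 and 0.58. These calls against the spleen were each lost when 1 array was left out. The Pofut1 call was also lost with a larger added constant, with the deposited scaling alone and with no filter. The Pofut2 call was also lost with median scaling. For Fut8 the largest added constant, a looser detection threshold and no filter also lost the call.

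Of the 8 other sialyltransferases tested, 2 rose and 1 fell in the intestine against the spleen, or 37.5%, against 48.2% of all genes. St6galnac3, which adds sialic acid to the inner sugar of short chains, had 201 and 274 in intestinal, 40.6 and 24.0 in skin and 82.6 and 88.2 in splenic cells. It rose in the intestine by 1.70 ± 0.19 against the spleen (log2, SE, limma adjusted p = 9.02e-05) and by 2.52 ± 0.19 against the skin, with a second probe at 0.73 and 0.35. In the skin it fell by a difference of -0.82 ± 0.19 against the spleen, where the second probe gave 0.39. This call was lost without either splenic array and without skin array 2. St6galnac4, an enzyme of the same kind, rose in the intestine by 0.96 ± 0.13 and 1.05 ± 0.13 against spleen and skin. St3gal1, which caps core 1 chains, fell in the intestine by a difference of -0.52 ± 0.13 against the spleen, a call lost without either splenic array.

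Among the 9 other genes of N-glycan branching and trimming, 3 rose and 3 fell in the intestine against the spleen. They make 66.7%, against 48.2% of all genes. Mgat4a, which adds another N-glycan branch, had 487 and 515 in intestinal, 121 and 118 in skin and 189 and 211 in splenic cells, and rose by 1.56 ± 0.14 against the spleen and 1.98 ± 0.14 against the skin, with its other probe at 2.23 and 2.41. The mannosidases went both ways. Man2a2 rose in the intestine by 1.21 ± 0.16 against the spleen, while Man2a1, which trims at the same step, fell by a difference of -0.95 ± 0.15, and Man1a, which trims earlier, by -1.32 ± 0.15. Man1a also fell in the skin against the spleen, by a difference of -1.17 ± 0.15, and its second probe gave 0.01 and -0.34 in these 2 comparisons with the spleen. Mgat1, which starts the first branch, fell in the intestine against the skin by a difference of -0.42 ± 0.14. This call was lost when 1 array was left out, with median scaling and with no filter.

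Of the 5 sulfotransferases tested, 1 passed in each comparison, or 20%. Of all genes, 48.2% passed in intestine against spleen, 23.1% in skin against spleen and 38.1% in intestine against skin. Chst2, which sulfates N-acetylglucosamine in surface chains, had 10.3 and 8.12 in intestinal, 45.8 and 52.4 in skin and 13.1 and 11.5 in splenic cells. It rose in the skin against the spleen by 1.26 ± 0.15 (log2, SE, limma adjusted p = 0.00101), and was lower in the intestine than in the skin, by -1.35 ± 0.15. Chst10 was lower in the intestine than in the spleen by -0.42 ± 0.15. That call was lost with a larger added constant, with median scaling, with no filter, and without any single array of intestine or spleen.

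Of the 21 tested genes that supply sugar donors, 4 rose and 8 fell in the intestine against the spleen. They make 57.1%, against 48.2% of all genes. Slc35c1, the transporter that brings GDP-fucose into the Golgi, had 185 and 157 in intestinal, 687 and 512 in skin and 817 and 719 in splenic cells, and fell by a difference of -1.77 ± 0.17 against the spleen and -1.56 ± 0.17 against the skin. Cmah, which turns the sialic acid donor into its hydroxylated form, was not detected in the intestine at 2.73 and 7.40, against 33.4 and 34.5 in the skin and 80.0 and 81.0 in the spleen. The intestine was at least 3.48-fold lower than the spleen and at least 2.17-fold lower than the skin for Cmah. Uap1 and Gfpt2, enzymes of UDP-GlcNAc synthesis, rose in the intestine against the spleen by 1.28 ± 0.17 and 0.97 ± 0.14, and against the skin by 1.23 ± 0.17 and 1.27 ± 0.14. In the skin the galactokinase Galk1 and Gmds, an enzyme of GDP-fucose synthesis, rose against the spleen by 1.11 ± 0.14 and 1.03 ± 0.13. The UDP-GlcNAc transporter Slc35a3 fell by a difference of -0.64 ± 0.14, a call lost without either splenic array and without skin array 1.

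Of 7 glycan-removing enzymes tested, 2 rose and 3 fell in the intestine against the spleen, or 71.4%, against 48.2% of all genes. The sialidase Neu1 rose by 0.90 ± 0.14, with its other probe at 0.04. The glucosylceramidase Gba2 and the beta-galactosidase Glb1 fell by differences of -0.83 ± 0.15 and -0.75 ± 0.13, with other Glb1 probes at -0.70 and 0.41. Against the skin, the fucosidase Fuca1 rose in the intestine by 0.67 ± 0.14.

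Among the selectins and the proteins that carry their ligands, 1 of 11 rose and 7 fell in the intestine against the spleen. They make 72.7%, against 48.2% of all genes. Spn, which encodes the O-glycosylated CD43, had 58.7 and 64.02 in intestinal, 155 and 143 in skin and 263 and 253 in splenic cells. It fell in the intestine by differences of -1.42 ± 0.13 against the spleen (log2, SE, limma adjusted p = 2.71e-05) and -0.92 ± 0.13 against the skin. Selp (P-selectin) and Ptprc (CD45) fell in the skin against the spleen by differences of -0.83 ± 0.19 and -0.86 ± 0.15, calls lost when 1 array was left out, and other Ptprc probes gave -0.02 and 0.17. Sele (E-selectin) rose in the intestine by 0.74 ± 0.20 against the spleen, a call lost without either splenic array, and by 1.23 ± 0.20 against the skin, at least 1.85-fold.

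The list of galectins and Siglecs, which read the chains, was drawn up with Cd83 in it. Of its 10 tested genes, 2 (Lgals3 and Cd83) rose and 5 fell in the intestine against the spleen. They make 70%, against 48.2% of all genes. Lgals1 had 780 and 751 in intestinal, 5306 and 4811 in skin and 4283 and 3780 in splenic cells, and fell by differences of -2.49 ± 0.14 against the spleen and -2.62 ± 0.14 against the skin. Lgals3 rose in the intestine by 1.77 ± 0.21 and in the skin by 1.79 ± 0.21 against the spleen. Cd83, an immunoglobulin-family surface protein that is neither galectin nor Siglec, had 537 and 530 in intestinal, 37.5 and 39.8 in skin and 30.4 and 30.2 in splenic cells. Its difference was 3.82 ± 0.13 against the spleen (log2, SE) and 3.37 ± 0.13 against the skin. As Cd83 was listed with earlier results of these data known, these values are a description. The probe named Mag, for a Siglec of myelin, fell in the intestine by differences of -2.68 ± 0.16 and -2.38 ± 0.16 against spleen and skin, with a second probe at -0.76 and -0.31. Cd22, the Siglec that binds the product of St6gal1, was detected in splenic cells only, at 11.5 and 5.93, and the skin was at least 1.05-fold lower. This call was lost with a larger added constant, with median scaling, with no filter, and without any single array of skin or spleen.

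The genes whose profile over the 6 arrays was most like that of Gcnt2 were Osgin1, B3galt5, Cables1, Rora and Ifitm2, at root mean square distances of 0.36, 0.37, 0.39, 0.51 and 0.59 between centred log2 values (6 arrays). Osgin1 had 570 and 705 in intestinal, 4.84 and 4.95 in skin and 4.0 and 4.1 in splenic cells. Rora, which encodes the nuclear receptor RORalpha, had 2093 and 1446 in intestinal, 56.8 and 56.0 in skin and 108 and 157 in splenic cells. Cables1 had 1444 and 1513 in intestinal, 16.2 and 32.8 in skin and 33.5 and 34.9 in splenic cells. For B3galt5 the nearest were Rora, Ifitm2, the probe named Igh-VJ558, Osgin1 and Calca, at 0.28, 0.28, 0.30, 0.31 and 0.31. Calca, the calcitonin gene, had 215 and 217 in intestinal, -4.83 and 2.51 in skin and 1.16 and 0.74 in splenic cells. With these 3 tissues, a gene high in the intestine alone by a step of similar size lies near both. The likeness is a description of 6 arrays.

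**Figure D5:**
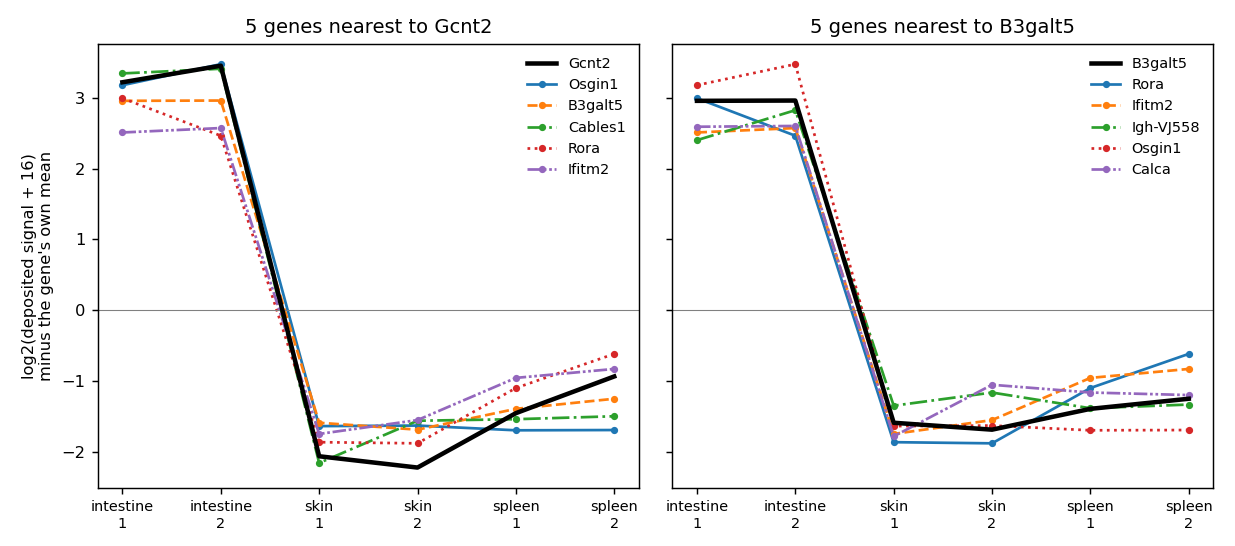
Log2(deposited signal + 16) minus each gene's own mean on the 6 arrays (intestine, skin and spleen from left to right) for Gcnt2 and B3galt5 (black) and for the 5 genes nearest to each. All lines are high on the 2 intestinal arrays and low on the other 4.

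For the other members the nearest genes lay at 0.23 or less. The 3 nearest to B4galt1 were Pnpla2, Mnt and the probe named Tcrd-V1 (0.05, 0.05 and 0.06), and those nearest to Mgat5 were E330031M19Rik, Taf1d and Mknk2 (0.03, 0.03 and 0.05). Fut7 lay nearest to Cpped1, Lrsam1 and Tnni1 (0.05, 0.05 and 0.06), St3gal4 to 1700030K09Rik, Mcoln2 and Tet1 (0.06, 0.06 and 0.07), and St3gal6 to Prune1, D4Ertd681e and Psma4 (0.04, 0.05 and 0.05). Gcnt1 lay nearest to Tomm20, Speer1 and Olfr1494 (0.04, 0.04 and 0.05), all of them at signals under 15. St6gal1, whose skin arrays differed, had Tiam1, Rad54b and Poc1a at 0.21, 0.22 and 0.23.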

How the data were processed

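RNA of sorted cells was extracted with a micro column kit and labelled with biotin per the labels' protocols. BeadStudio 1.5.1.3 is named in the submitters' processing notes. Each of 6 tables holds, per the file headers, the deposited signal (intensity) and detection p-value of 46643 probes. The deposited intensities were background-subtracted, with 30.7% to 32.7% of an array's probes below 0, and scaled to a mean of 83.1. For both steps and for the detection p-value the method is not stated in the sources used here. The series table holds the same intensities unscaled, at 0.995 and 0.612 (intestine), 0.526 and 0.643 (skin) and 1.65 and 1.58 (spleen) times the scaled signals. Detected probes numbered 16549 and 15279 in intestine, 15196 and 16477 in skin and 18266 and 18530 in spleen, and the number of arrays limits the precision.

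The log2 of signal + 16 was quantile normalised and fitted with limma 3.58.1 (R 4.3.3; lmFit, eBayes) on 6 arrays with a mean per tissue and 3 residual degrees of freedom. Benjamini-Hochberg adjustment ran over all 18583 kept probes (threshold 0.05), and a gene was read by its kept probe of highest mean. A lower bound uses the dim array's lowest detected signal or the probe's own, if higher. Symbols were updated with the RefSeq table of GRCm38.p6, and promoter windows are RefSeq's for GRCm38.p6 (all 9 members matched). The fit was tested on simulated data. The members and lists were chosen with earlier results of these data known. Named genes are every member, up to 2 genes per list, direction and comparison with the largest passing difference (both arrays of the higher tissue with detection, all 4 array differences of 1 sign), and the genes nearest to each member; 2 genes that the rule names are not reported here. Replicates with 1 number shared a slide, from the file headers. Their deviations from the tissue means correlated at 0.14 (intestine and spleen), 0.19 (skin and spleen) and 0.11 (intestine and skin). With groups of 2, no sample was tested as an outlier. Alternatives changed the added constant, the normalisation, the filter, the probe rule, the replicate block and the arrays used.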

Additional observations from a re-analysis of the deposited data

How the results depend on the processing

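All 379 alternative values of the 22 member probe differences past the threshold kept their sign, and 310 of the 335 that came from a fit stayed past it. Those lost were of probe 106040605 of B4galt1 (intestine against spleen, 9 settings), probe 5910184 of St3gal6 (intestine against skin, 7), Gcnt2 (skin against spleen, 4), St6gal1 (skin against spleen, 3) and probe 105420711 of St3gal6 (intestine against spleen, 2). Of 80 named list differences, 57 passed in every fit run and 23 were lost in at least 1, none with a change of sign. The 80 were named only where all 4 array differences had 1 sign, and the 22 also had this. Leaving out 1 array could therefore hardly reverse them. The 22 were taken because they passed, and the members were chosen on these levels. These counts are a description and no test of stability. The nearest genes shared at least 4 of 5 with those named in 13 of 15 alternatives for Gcnt2 and 12 of 15 for B3galt5, down to 3 and 1.

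The genes of the 11 lists called in skin against spleen numbered 26, and 41 with median scaling. Without 1 array they were 40 and 41 (intestine 1 and 2), 8 and 16 (skin 1 and 2) and 10 and 7 (spleen 1 and 2). Probes called in skin against spleen numbered 4253, against 2277 with no filter, 6421 and 6422 without intestine 1 and 2, 1165 and 2482 without skin 1 and 2, and 632 and 622 without spleen 1 and 2. Probes called in intestine against spleen numbered 8822, from 5211 (without spleen 1) and 5279 (without spleen 2) to 9078, and in intestine against skin 6727, from 4925 to 7387. List genes called without 1 array ranged from 45 to 64 in intestine against spleen (66 with all) and from 47 to 60 in intestine against skin (57 with all). Fewer arrays leave fewer degrees of freedom, and the lone array of a tissue is then assumed to vary like the others. The replicate block gave 68, 34 and 60 list genes in intestine against spleen, skin against spleen and intestine against skin, and changed no count by over 1.5 times. With it Fut7 passed in skin against spleen, which it did not without.

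Scaling moved the balance. The median over all genes in intestine against spleen was -0.04, against -0.25 with the deposited scaling alone and 0.21 with median scaling, and in skin against spleen 0.00, -0.12 and 0.14. Of probes called in intestine against spleen 41.9% were higher, against 24.7% and 67.4%. In skin against spleen they were 47.0%, 30.7% and 72.4%, and in intestine against skin 46.0%, 33.6% and 55.7%. List genes called in skin against spleen were 38.5%, 23.5% and 58.5% higher.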
